A study of Mus musculus with 6 samples.

Results

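Th17 cells are helper T cells that make the cytokines IL-17A, IL-17F and IL-22. Described here are 10 genes of this programme, namely the cytokine genes Il17a, Il17f and Il22, the chemokine gene Ccl20, the receptor genes Il23r, Ccr6 and Il17re, and the regulators Rora, Irf4 and Nfkbiz. They are 10 of 22180 genes measured by array in CD4+ T cells of mouse spleen. Each was taken by its symbol from the platform annotation, and all 10 had 1 probe set. The cells were isolated with magnetic beads and kept for 12 hours with antibodies to CD3 and CD28 (1 µg/ml), which activate T cells, in every group. In the PlGFCM group the medium was conditioned by clones of HEK-293, a cell line from human embryonic kidney, that overexpress the PlGF2 form of placental growth factor. In the IL6_ConCM group it was control conditioned medium with IL-6 at 20 ng/ml, and in the ConCM group control conditioned medium alone. Each group held 2 samples, and no group received purified PlGF. The sources used here give no strain, age or genotype of the mice. The series asks what medium with PlGF and IL-6 do to stimulated CD4+ T cells.

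As background, Th17 cells arise when IL-6 acts on a stimulated CD4+ T cell together with TGF-beta, through the transcription factor STAT3, and IL-23 then sustains them. IL-17A and IL-17F are close relatives that pair with themselves or with each other and bind a receptor of the chains IL-17RA and IL-17RC on other cells, where they induce inflammatory genes. CCL20 is the ligand of CCR6, a chemokine receptor carried by Th17 cells.

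Of the 10 genes, Il17f alone passed the test, and in PlGFCM against ConCM alone. It rose by 1.04 on the log2 scale, and in IL6_ConCM it lay 0.71 above ConCM without passing. Il17a was highest on both PlGFCM arrays, by less than the test could call. The other 8 genes differed between group means by 0.30 log2 units or less in every comparison. Among the related genes that are not among the 10, Il17ra, the receptor chain shared by the IL-17 family, rose in PlGFCM.

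Promoter sequences of 9 of the 10 genes were available from RefSeq (GRCm38.p6), each window running from 250 bases before to 50 bases after the gene start. Both strands were searched for the STAT motif TTCNNNGAA, the AP-1 motif TGANTCA, the ROR half-site AGGTCA, which receptors of Rora's family bind, and the IRF motif, GAAA followed after any 2 bases by GAAA. Of all 32851 windows, 8.30% held the STAT motif, 7.81% the AP-1 motif, 16.3% the ROR half-site and 3.44% the IRF motif. The windows of Il17f, Il17a, Il23r and Ccr6 are shown because they are the cytokine and receptor genes whose windows held a match. Capitals mark the matches, and letters run 5′ to 3′ on the gene's strand.
Il17f, chr1:20784221-20784520, minus strand: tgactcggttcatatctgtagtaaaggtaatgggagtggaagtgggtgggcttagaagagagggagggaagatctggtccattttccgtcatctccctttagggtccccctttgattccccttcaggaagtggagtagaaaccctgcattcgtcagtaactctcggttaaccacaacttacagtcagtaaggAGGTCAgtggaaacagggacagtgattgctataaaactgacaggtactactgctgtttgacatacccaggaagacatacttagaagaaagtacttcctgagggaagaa
Il17a, chr1:20730655-20730954, plus strand: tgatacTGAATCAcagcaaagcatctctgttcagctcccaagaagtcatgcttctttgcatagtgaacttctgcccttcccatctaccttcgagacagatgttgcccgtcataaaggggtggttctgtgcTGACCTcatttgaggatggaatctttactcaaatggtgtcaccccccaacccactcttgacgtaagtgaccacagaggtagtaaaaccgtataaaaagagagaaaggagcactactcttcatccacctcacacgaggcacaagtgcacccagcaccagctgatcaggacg
Il23r, chr6:67491806-67492105, minus strand: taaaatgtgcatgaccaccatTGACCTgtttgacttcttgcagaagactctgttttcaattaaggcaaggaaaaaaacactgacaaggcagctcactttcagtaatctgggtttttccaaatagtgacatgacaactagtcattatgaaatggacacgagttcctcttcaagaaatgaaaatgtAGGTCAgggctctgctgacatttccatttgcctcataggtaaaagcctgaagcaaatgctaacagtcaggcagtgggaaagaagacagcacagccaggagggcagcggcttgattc
Ccr6, chr17:8235793-8236092, plus strand: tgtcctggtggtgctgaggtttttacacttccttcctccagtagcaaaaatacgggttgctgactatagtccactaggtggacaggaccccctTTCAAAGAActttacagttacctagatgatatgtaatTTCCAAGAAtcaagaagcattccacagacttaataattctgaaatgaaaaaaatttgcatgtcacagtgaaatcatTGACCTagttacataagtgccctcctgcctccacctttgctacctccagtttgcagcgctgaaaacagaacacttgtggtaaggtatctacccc
Il17f held a ROR half-site whose first printed base lies at -58 from the gene start. In Il17a the same half-site lay on the opposite strand at -120, and an AP-1 match at -244. Il23r held 2 half-sites, at -229 and -66. Ccr6 held 2 STAT matches, at -157 and -120, and a half-site at -44, while its second annotated window held none of the 4 motifs. The window of Ccl20 held 1 half-site, at -174, and those of Il22, Il17re, Rora and Irf4 had no match. A match of letters is not a binding site, and the arrays did not measure binding. Il17a and Il17f are next to each other on chromosome 1, with 0 annotated genes between them in RefSeq's GRCm38.p6.

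The 6 arrays had median log2 levels of 5.47 to 5.51. PlGFCM replicate 2 stood apart in Xist, the transcript that marks female cells, with 8.38 there against 3.58 to 3.95 elsewhere. That array also held the lowest values of Uty, Kdm5d and Eif2s3y, which lie on the Y chromosome. Log2 differences of the 10 genes between PlGFCM and ConCM are given with and without it. All groups received the same isolation, and 7 of 11 listed T helper markers were measured, with a mean log2 level of 10.42 to 10.61 over the 6 arrays and Cd4 group means of 11.25 in PlGFCM, 11.25 in IL6_ConCM and 11.33 in ConCM. In RNA from a whole sample, fewer cells of a type and less RNA per cell cannot be told apart. Whether the 2 replicates are separate mice or cultures is not stated, so p-values measure a spread between samples that may be technical. In PlGFCM the Xist values of 3.58 and 8.38 differ, so these 2 arrays may not hold cells of the same mice. PlGFCM replicate 2 still held Kdm5d at 7.07, so it may mix cells of both sexes.

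**Figure D1:**
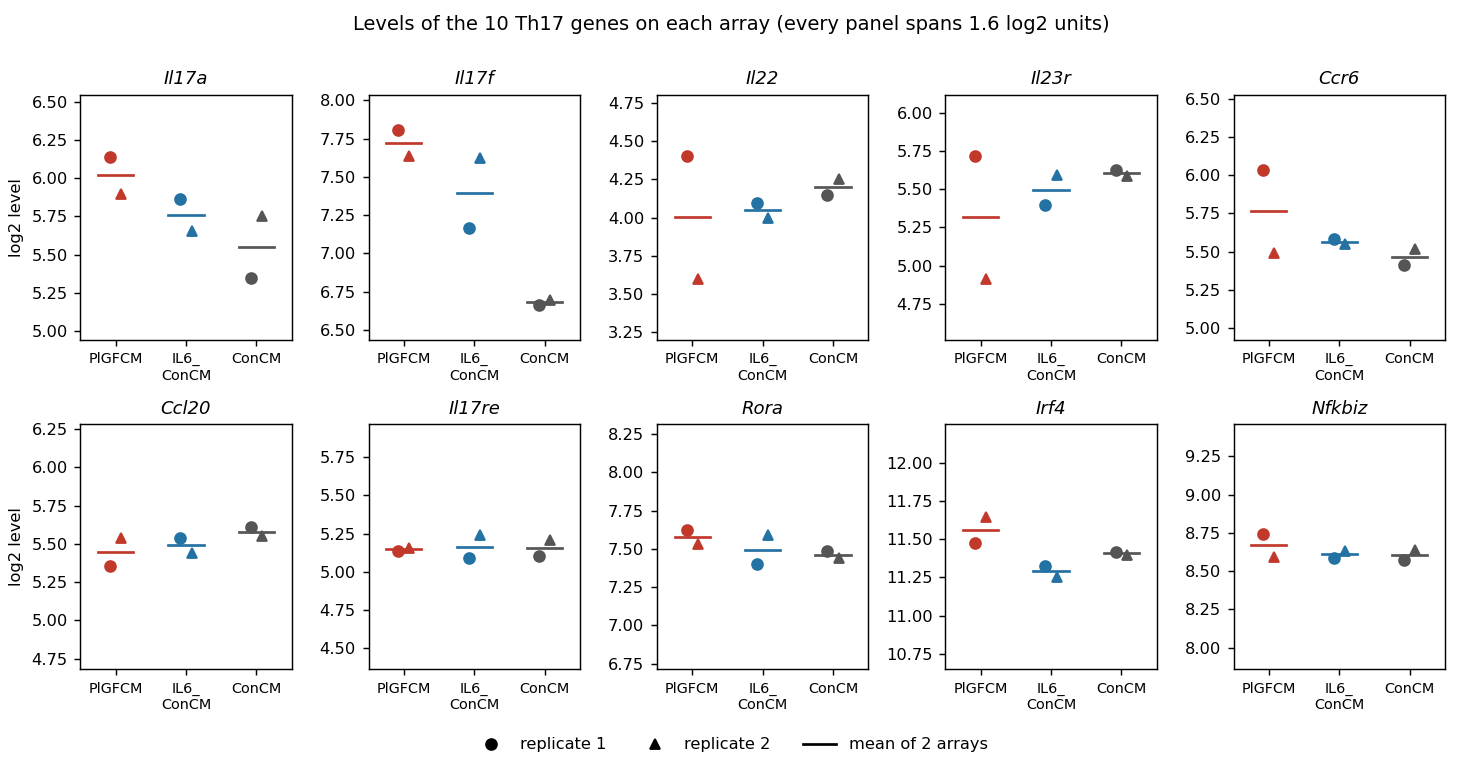
Log2 level of each of the 10 genes on every array, by group, with circles for replicate 1, triangles for replicate 2 and bars for the mean of 2 arrays. Every panel spans 1.6 log2 units around its own centre. Il17f lies between 7.16 and 7.80 on the PlGFCM and IL6_ConCM arrays and at 6.67 and 6.69 in ConCM, and the PlGFCM arrays lie apart for Il22 and Il23r.

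Il17f had log2 levels of 7.80 and 7.64 in PlGFCM, 7.16 and 7.62 in IL6_ConCM and 6.67 and 6.69 in ConCM. Both PlGFCM arrays were above both IL6_ConCM arrays, by as little as 0.012, and all 4 were above ConCM, by at least 0.94 in PlGFCM and 0.47 in IL6_ConCM. Group means were 7.72 ± 0.12 in PlGFCM, 7.39 ± 0.33 in IL6_ConCM and 6.68 ± 0.02 in ConCM (SD, n = 2 each). By limma on all genes, PlGFCM exceeded ConCM by 1.04 ± 0.14 (SE), or 2.06-fold, with an adjusted p of 0.0103 and a 95% interval of 0.73 to 1.35. That p was the 25th smallest of 22180. In this comparison 0.433% of all genes passed, against 1 of these 10. With 1 of the 4 arrays left out the call was lost each time, at an adjusted p of 0.154 when PlGFCM replicate 1 was dropped, 0.1055 for PlGFCM replicate 2, 0.0512 for ConCM replicate 1 and 0.0788 for ConCM replicate 2, while the log2 change stayed between 0.96, without PlGFCM replicate 1, and 1.13, without PlGFCM replicate 2, in these limma fits.

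In IL6_ConCM, Il17f was 0.71 ± 0.14 (SE) above ConCM, or 1.64-fold, with a 95% interval of 0.41 to 1.02, and did not pass (limma adjusted p = 0.108, unadjusted p = 0.000323). The gap between the IL6_ConCM replicates was 0.46, and 3.59% of all genes had a gap at least as large in that group. Without IL6_ConCM replicate 1 the log2 change was 0.94 and passed (adjusted p = 0.0272), and without IL6_ConCM replicate 2 it was 0.48 (adjusted p = 0.551). Set directly against IL6_ConCM, PlGFCM was 0.33 ± 0.14 (SE) higher, with a 95% interval of 0.02 to 0.63 and an adjusted p of 0.998. So the direct comparison did not show that the media differ for Il17f. PlGFCM and IL6_ConCM are compared with the same ConCM arrays, so their log2 changes are not independent.

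**Figure D2:**
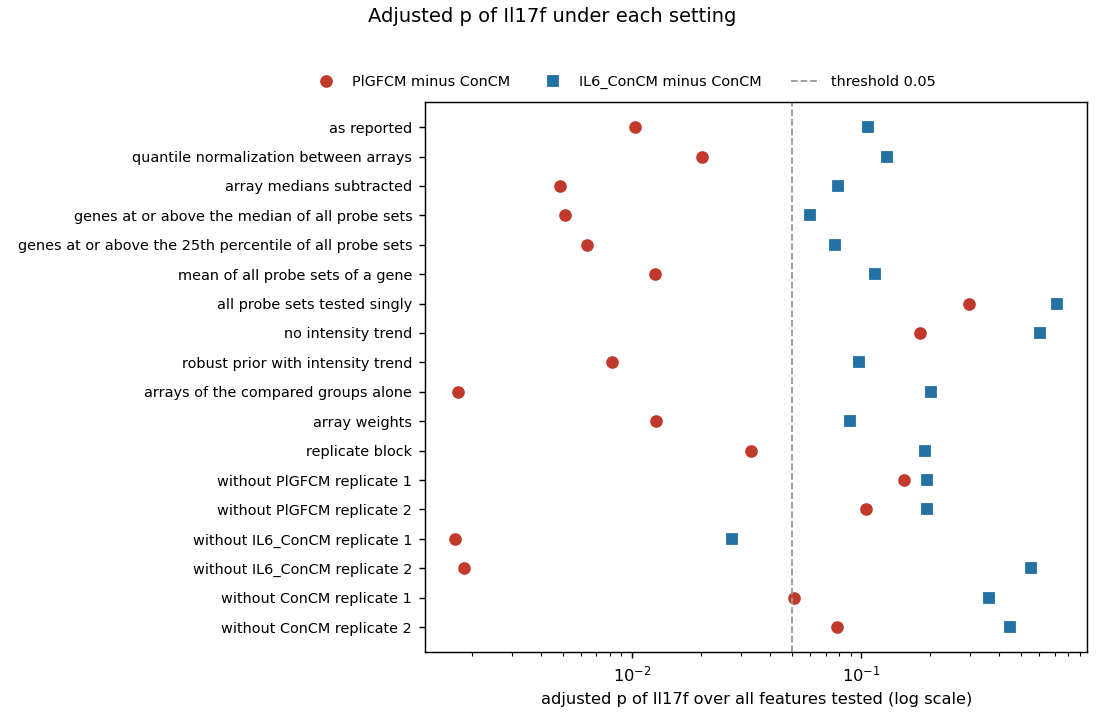
Adjusted p of Il17f (log axis) in PlGFCM against ConCM (circles) and IL6_ConCM against ConCM (squares) as reported and under each alternative, with a dashed line at 0.05. The PlGFCM call is lost when all probe sets are tested singly (0.295), without an intensity trend (0.182) and without any 1 of the 4 arrays compared, and the IL6_ConCM value passes in 1 alternative, without IL6_ConCM replicate 1 (0.0272).

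For Il17a, the namesake cytokine of Th17 cells, log2 levels were 6.14 and 5.90 in PlGFCM, 5.86 and 5.65 in IL6_ConCM and 5.35 and 5.76 in ConCM. PlGFCM lay above the other groups on both arrays, by at least 0.035 from IL6_ConCM and 0.14 from ConCM, and the groups IL6_ConCM and ConCM overlapped. PlGFCM was 0.47 ± 0.16 (SE) above ConCM, with a 95% interval of 0.12 to 0.81, an unadjusted p of 0.0131 and an adjusted p of 0.376 by limma. IL6_ConCM was 0.21 ± 0.16 above ConCM (interval -0.14 to 0.55), and PlGFCM 0.26 ± 0.16 above IL6_ConCM (interval -0.088 to 0.61). The ConCM replicates were 0.41 apart, a gap that 6.12% of all genes reached in that group, and the log2 change of PlGFCM against ConCM was 0.67 without ConCM replicate 2, 0.26 without ConCM replicate 1, 0.59 without PlGFCM replicate 2 and 0.35 without PlGFCM replicate 1. That of IL6_ConCM against ConCM was 0.0030 without ConCM replicate 1 and 0.41 without ConCM replicate 2, and that of PlGFCM against IL6_ConCM ran from 0.14 without PlGFCM replicate 1 to 0.38 without PlGFCM replicate 2.

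Il22, whose product acts on epithelial cells, was at 4.41 and 3.60 in PlGFCM, 4.10 and 3.997 in IL6_ConCM and 4.15 and 4.25 in ConCM. The PlGFCM arrays held both the highest and the lowest value of the 6. Their gap of 0.81 was reached by 0.469% of all genes in PlGFCM. Against ConCM the log2 difference was -0.20 in PlGFCM (interval -0.69 to 0.29) and -0.15 in IL6_ConCM (interval -0.64 to 0.34). Without PlGFCM replicate 2 the sign in PlGFCM turned, to 0.21. The mean of this probe set, 4.08, was below the 25th percentile of all probe sets, and Il22 was the 1 gene of the 10 that the laxer filter on low levels removes.

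The chemokine gene Ccl20 was at 5.35 and 5.54 in PlGFCM, 5.54 and 5.44 in IL6_ConCM and 5.61 and 5.55 in ConCM. Both ConCM arrays were above the other 4, by as little as 0.0089. The log2 difference from ConCM was -0.13 in PlGFCM (interval -0.41 to 0.15) and -0.087 in IL6_ConCM (interval -0.37 to 0.19), and neither passed. In PlGFCM it was -0.22 without PlGFCM replicate 2 and -0.039 without PlGFCM replicate 1, and in IL6_ConCM it ran from -0.13 without IL6_ConCM replicate 1 to -0.039 without IL6_ConCM replicate 2.

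Among the receptors, Il23r, which encodes the chain that makes a cell responsive to IL-23, had log2 levels of 5.72 and 4.91 in PlGFCM, 5.40 and 5.59 in IL6_ConCM and 5.62 and 5.58 in ConCM. PlGFCM replicate 2 was the low array, the same one that was low for Il22, and PlGFCM replicate 1 the highest of all 6. The replicate gap of 0.80 was reached by 0.491% of all genes in PlGFCM, against gaps of 0.20 in IL6_ConCM and 0.04 in ConCM. The log2 difference of PlGFCM from ConCM was -0.29 with both arrays (interval -0.75 to 0.18) and 0.11 without PlGFCM replicate 2. In IL6_ConCM it was -0.11 (interval -0.57 to 0.36).

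Ccr6 showed the same order of the PlGFCM replicates, with 6.03 and 5.49 in PlGFCM, 5.58 and 5.55 in IL6_ConCM and 5.41 and 5.52 in ConCM. PlGFCM replicate 1 stood above the other 5 arrays, which lay between 5.41 and 5.58. The gap of 0.54 in PlGFCM was reached by 3.30% of all genes there. Against ConCM the log2 difference was 0.30 ± 0.17 in PlGFCM (SE, interval -0.067 to 0.66), and 0.57 without PlGFCM replicate 2 and 0.026 without PlGFCM replicate 1. Il17re, whose product binds IL-17C together with IL-17RA, was at 5.14 and 5.15 in PlGFCM, 5.09 and 5.24 in IL6_ConCM and 5.10 and 5.21 in ConCM. These values overlapped between all groups, and the interval of PlGFCM minus ConCM was -0.29 to 0.27, with a log2 difference of -0.0093 with both PlGFCM arrays and -0.017 without PlGFCM replicate 2.

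Of the regulators, Irf4, a transcription factor that cooperates with BATF in Th17 cells and is induced by T cell receptor signals, had log2 levels of 11.47 and 11.65 in PlGFCM, 11.33 and 11.25 in IL6_ConCM and 11.42 and 11.39 in ConCM. The 3 groups did not overlap, with PlGFCM highest, ConCM in the middle and IL6_ConCM lowest. PlGFCM was 0.27 ± 0.07 (SE) above IL6_ConCM, or 1.21-fold, with a 95% interval of 0.13 to 0.41, an unadjusted p of 0.00156 and a limma adjusted p of 0.468. That p was the 73rd smallest in the comparison, in which 0.0316% of all genes passed. Against ConCM, PlGFCM was 0.15 ± 0.07 higher (interval 0.011 to 0.30) and IL6_ConCM was at -0.12 ± 0.07 (interval -0.26 to 0.026). None of these passed by limma. Without PlGFCM replicate 2 the log2 difference of PlGFCM was 0.068 from ConCM and 0.18 from IL6_ConCM, and without PlGFCM replicate 1 it was 0.24 from ConCM and 0.36 from IL6_ConCM.

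Rora encodes a nuclear receptor that promotes the Th17 programme, and its log2 levels were 7.63 and 7.53 in PlGFCM, 7.40 and 7.59 in IL6_ConCM and 7.48 and 7.44 in ConCM. PlGFCM exceeded ConCM on both arrays, by at least 0.046, and IL6_ConCM spanned the ConCM values. The log2 difference from ConCM was 0.12 in PlGFCM (interval -0.10 to 0.34) and 0.034 in IL6_ConCM (interval -0.19 to 0.25). In PlGFCM it was 0.17 without PlGFCM replicate 2 and 0.069 without PlGFCM replicate 1. Nfkbiz, which encodes the nuclear NF-kappaB cofactor I-kappaB-zeta, was at 8.75 and 8.59 in PlGFCM, 8.59 and 8.63 in IL6_ConCM and 8.57 and 8.64 in ConCM. Its groups overlapped in all 3 comparisons, and the interval of PlGFCM minus ConCM, -0.12 to 0.25, leaves out a change of 2-fold. That log2 difference was 0.065 with both PlGFCM arrays, 0.14 without PlGFCM replicate 2 and -0.010 without PlGFCM replicate 1.

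**Figure D3:**
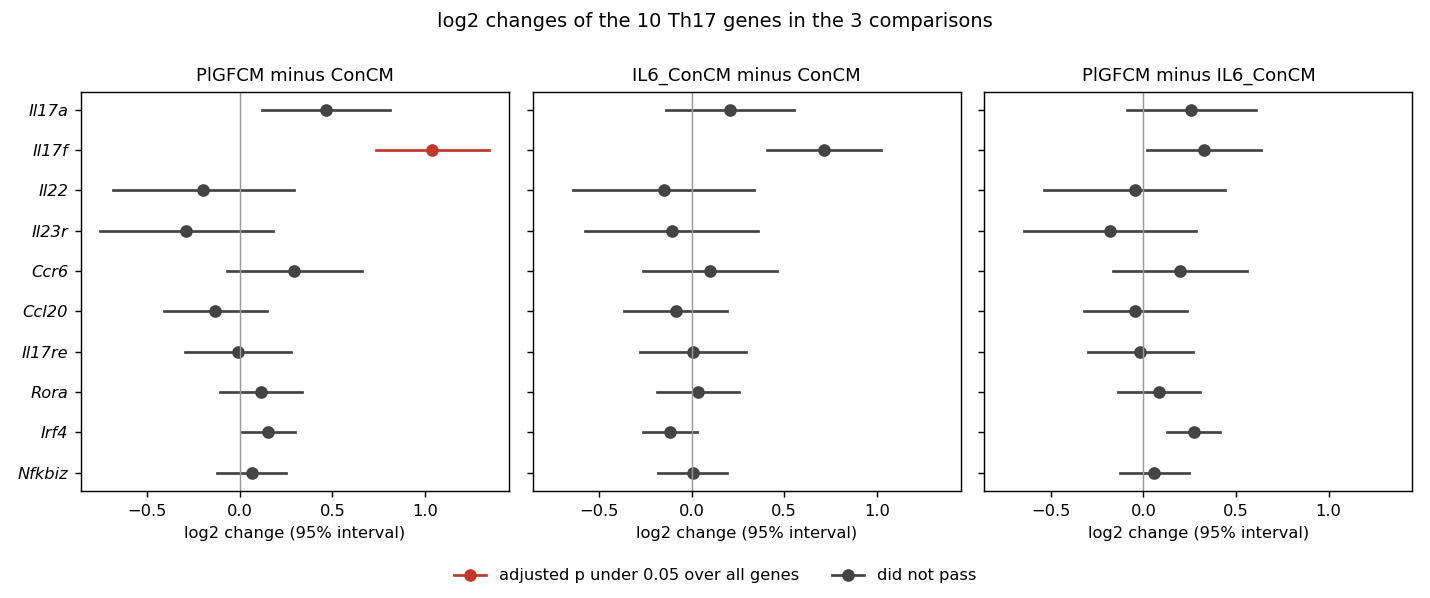
Log2 change (points) with its 95% interval (lines) for the 10 genes, with PlGFCM minus ConCM on the left, IL6_ConCM minus ConCM in the middle and PlGFCM minus IL6_ConCM on the right. Il17f in the left panel, at 1.04, is the value that passed, and the widest intervals are those of Il22 and Il23r.

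As a group the 10 genes did not move together. In PlGFCM against ConCM 1 rose, 0 fell and 9 did not pass, and 6 had a positive and 4 a negative log2 change. Their median was 0.091, against -0.014 for all genes, and ran from 0.012 without PlGFCM replicate 1 to 0.15 without PlGFCM replicate 2. At an unadjusted p under 0.05, 3 of the 10 were higher (Il17a, Il17f and Irf4) and 0 lower, where 4.19% of all genes were higher and 4.54% lower. Groups did not overlap for 5 of the 10, namely Il17a, Il17f, Rora and Irf4 above ConCM and Ccl20 below, where 38.2% of all genes do not overlap. In IL6_ConCM against ConCM 0 of 10 passed by limma, 1 of 10 was higher (Il17f) and 0 lower at an unadjusted p under 0.05, where 2.62% of all genes were higher and 3% lower, and the median was 0.0067, against -0.0091 for all genes. The sign of that median turned with the array left out, at 0.055 without IL6_ConCM replicate 1, against -0.050 when IL6_ConCM replicate 2 was dropped and -0.035 when ConCM replicate 1 was. Here 0.113% of all genes passed. Il17f and Ccr6 lay above ConCM and Il22, Ccl20 and Irf4 below it, which is 5 of 10 beside 34.1% of all genes. Between PlGFCM and IL6_ConCM 0 of 10 passed by limma, 2 of 10 (Il17f and Irf4) were higher and 0 lower at an unadjusted p under 0.05, where 2.56% of all genes were higher and 1.81% lower, and the median was 0.071, against -0.0030 for all genes. It ran from 0.013 without PlGFCM replicate 1 to 0.20 without PlGFCM replicate 2. Il17a, Il17f and Irf4 did not overlap, all higher in PlGFCM, 3 of 10 beside 30.1% of all genes. The 95% interval reached 0.29 to either side for the median gene and 0.14 to 0.49 for these 10.

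The genes whose pattern over the 6 arrays was most like that of Il17f were Il10, Ear14, Syt11, Ier3 and Olfr851, with Pearson's r of 0.978, 0.976, 0.972, 0.971 and 0.968. Il10, for example, was at 7.12 and 7.14 in PlGFCM, 6.33 and 6.83 in IL6_ConCM and 5.96 and 6.01 in ConCM. For Il17a they were Prr23a1, Olfr790, Mpi, Clhc1 and Neurl3, with r of 0.983, 0.965, 0.963, 0.960 and 0.954. Several of these matches were dim, below the median of all probe sets, 5.48, on every array. Ear14 lay at 3.40 to 4.04 and Olfr851 at 2.42 to 3.17. Prr23a1 lay at 4.59 to 5.16, Olfr790 at 2.77 to 3.37 and Clhc1 at 3.83 to 4.705. Whether their levels stand above the background of the arrays was not tested. The search covered 3506 genes with a range of at least 0.5 log2 units, and r was 0.95 or more for 19 of them with Il17f and for 6 with Il17a. Each r rests on 6 arrays in 3 groups, and the genes share those arrays. Between Il17a and Il17f themselves r was 0.687, and between Il22 and Il23r, which were both low on PlGFCM replicate 2, it was 0.911.

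Genes around the 10 were followed by lists of the pathway's parts. Of 4 other receptor chains of the IL-17 family, 1 rose in PlGFCM and 3 did not pass. Il17ra, which forms the receptor of IL-17A and IL-17F with Il17rc's product, had log2 levels of 9.81 and 9.81 in PlGFCM, 9.61 and 9.68 in IL6_ConCM and 9.28 and 9.04 in ConCM. All 4 arrays of the treated groups were above ConCM. It rose by 0.65 ± 0.09 (SE), or 1.57-fold, in PlGFCM (limma adjusted p = 0.00947), and was 0.48 ± 0.09 higher in IL6_ConCM without passing (adjusted p = 0.0619). The PlGFCM call was lost without PlGFCM replicate 1 (adjusted p = 0.121), PlGFCM replicate 2 (0.132) or ConCM replicate 2 (0.0741), at log2 changes of 0.53 to 0.76 over the limma fits without 1 array. The IL6_ConCM value passed in 3 of 17 alternatives. Il17rb, Il17rc and Il17rd, the other chains, did not pass. The other IL-17 family ligands, Il17b, Il17c, Il17d and Il25, had 0 of 4 passing in each comparison, and 0 of 4 had an unadjusted p under 0.05.

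Of 15 measured genes of IL-17 receptor signalling and NF-kappaB, which carry the signal inside the receiving cell, 0 passed by limma in any comparison. Against ConCM, 12 of 15 had a positive log2 change in PlGFCM, with a median of 0.13 and 5 at an unadjusted p under 0.05, and 6 of 15 in IL6_ConCM, with a median of -0.016 and 0 at an unadjusted p under 0.05. In PlGFCM minus IL6_ConCM 14 of 15 were positive, and 6 had an unadjusted p under 0.05. The shares of all genes that were higher at that p, given above, were 4.19% and 2.56%. Over all genes the median log2 change was -0.014 in PlGFCM and -0.0091 in IL6_ConCM against ConCM. It was -0.0030 in PlGFCM minus IL6_ConCM. These shares and medians cover genes of every level, and this list was bright. Its mean log2 level was 9.31 to 9.48 over the arrays, against a median of 5.48 for all probe sets. No comparison with equally bright genes was made. Traf6, an adaptor of this pathway and of the IL-1 receptor, was 0.37 above ConCM and 0.41 above IL6_ConCM in PlGFCM without passing. Of the ligands and receptors of IL-23 and IL-22 and their kinases, 0 of 10 passed by limma in any comparison, and against ConCM in PlGFCM 1 was higher and 2 lower at an unadjusted p under 0.05, where 4.19% of all genes were higher and 4.54% lower. The 2 were Il23a, the IL-23 subunit, at -0.41, and Il12rb1, which pairs with Il23r's product, at -0.29.

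The list of receptors for cytokines that induce Th17 cells had 2 of 9 genes that rose in PlGFCM and 1 in IL6_ConCM. Of all genes 0.433% and 0.113% passed there. At an unadjusted limma p under 0.05, 7 of 9 were higher in PlGFCM and 3 in IL6_ConCM, and 0 were lower in either. The 7 include Il1r2, a decoy receptor of IL-1, and Tnfrsf1b, a receptor of TNF, at 0.43 and 0.21. The shares of all genes that were higher at that p were 4.19% and 2.62%. Il1r1, the IL-1 receptor, was at 6.09 and 5.95 in PlGFCM, 6.04 and 6.27 in IL6_ConCM and 5.19 and 5.37 in ConCM, and rose in both. Il6ra rose by 0.41 in PlGFCM. Among 20 factors that promote Th17 differentiation 3 rose in PlGFCM, 0 fell, and 0 passed in IL6_ConCM by limma. At an unadjusted p under 0.05, 9 of 20 were higher in PlGFCM, where 4.19% of all genes were, and 7 of 20 in IL6_ConCM, where 2.62% were, and 0 were lower in either. These shares also cover dim genes, so they are not those of equally bright genes. Mean log2 levels over the arrays were 8.86 to 9.14 for this list and 8.27 to 8.59 for the receptor list. For the list of restraining genes, given below, they were 8.52 to 8.64. Fosl2, an AP-1 factor, was at 9.54 and 9.38 in PlGFCM, 9.31 and 9.38 in IL6_ConCM and 8.97 and 8.85 in ConCM, and rose by 0.55 ± 0.08 (SE) in PlGFCM (limma adjusted p = 0.0190). Its value in IL6_ConCM was 0.43 ± 0.08 (adjusted p = 0.101). Ahr and Maf, transcription factors that promote Il10 expression in T cells, rose by 0.85 each in PlGFCM, and were at 0.31 and 0.22 in IL6_ConCM without passing. Each of these calls was lost in some fits with 1 array left out. Such a fit leaves 1 array in a group, which weakens the test for every gene. The log2 change in PlGFCM against ConCM stayed positive, at 0.84 to 0.87 for Ahr and 0.70 to 1.01 for Maf. It ran from 0.47 to 0.63 for Fosl2, 0.65 to 0.83 for Il1r1 and 0.37 to 0.45 for Il6ra. Without PlGFCM replicate 1 the adjusted p in PlGFCM was 0.117 for Ahr, 0.272 for Maf, 0.186 for Fosl2, 0.276 for Il1r1 and 0.165 for Il6ra. Without PlGFCM replicate 2 it was 0.132 for Ahr, 0.163 for Maf, 0.1035 for Fosl2, 0.181 for Il1r1 and 0.251 for Il6ra. Without ConCM replicate 2 it was 0.0741 for Ahr, 0.0665 for Maf, 0.160 for Fosl2, 0.148 for Il1r1 and 0.212 for Il6ra. Without ConCM replicate 1 the calls of Maf (0.199), Il1r1 (0.273) and Il6ra (0.0777) were lost as well, and those of Ahr (0.0495) and Fosl2 (0.0455) passed. The Il1r1 call in IL6_ConCM was lost without any 1 of the 6 arrays, at adjusted p from 0.0575 to 0.268.

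**Figure D4:**
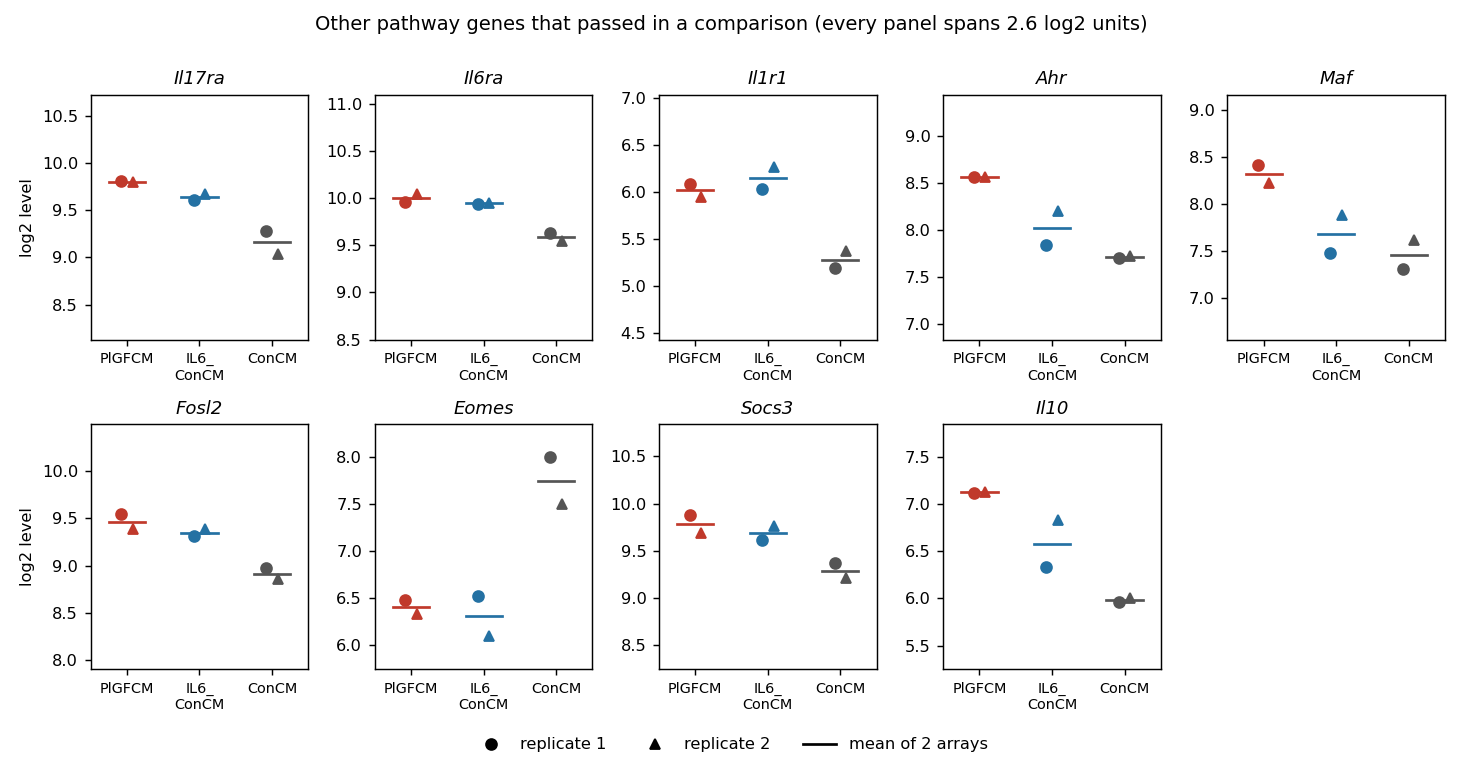
Log2 level on each array of the 9 other pathway genes that passed in at least 1 comparison, with circles for replicate 1, triangles for replicate 2 and bars for the mean of 2 arrays, every panel spanning 2.6 log2 units. In 8 of the 9 panels the arrays of PlGFCM lie above ConCM, and Eomes is the exception, at 6.48 and 6.32 in PlGFCM, 6.51 and 6.09 in IL6_ConCM and 7.99 and 7.50 in ConCM.

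Of 21 measured genes that restrain the Th17 programme, 1 rose and 1 fell in PlGFCM, and 0 rose and 1 fell in IL6_ConCM. At an unadjusted p under 0.05, 8 of 21 were higher and 1 lower in PlGFCM, where 4.19% of all genes were higher and 4.54% lower. The promoting and the restraining list thus both had more higher than lower genes in PlGFCM. In IL6_ConCM 2 of 21 were higher and 3 lower, where 2.62% of all genes were higher and 3% lower. Eomes, a factor of Th1 and cytotoxic cells, fell in both, and Socs3, an inhibitor of STAT3 signalling, rose in PlGFCM. The Eomes call in PlGFCM was lost without PlGFCM replicate 1 (adjusted p = 0.0817) or PlGFCM replicate 2 (0.136), and that in IL6_ConCM without IL6_ConCM replicate 2 (0.0552). The Socs3 call was lost without any 1 of the 4 arrays compared, at adjusted p from 0.0729 to 0.341. Of 21 other effector and surface genes of Th17 cells 1 rose in PlGFCM, Il10, and 0 passed in IL6_ConCM by limma. At an unadjusted p under 0.05, 5 were higher and 1 lower in PlGFCM, beside the same shares of all genes, and 5 higher and 3 lower in IL6_ConCM. The Il10 call was lost without PlGFCM replicate 1 (adjusted p = 0.108), PlGFCM replicate 2 (0.127) or ConCM replicate 2 (0.0665). Between PlGFCM and IL6_ConCM 0 genes of any of these lists passed by limma.

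Markers of other cells were read beside these values. Gamma-delta T cells and type 3 innate lymphoid cells also make IL-17 and IL-22. Of their 16 listed markers 7 were measured, and the gamma-delta receptor genes Trdc, Trgc1, Trgc2 and Trgc4 were not. The mean log2 level of the 7 was 5.38 to 5.55 in PlGFCM, 5.46 to 5.56 in IL6_ConCM and 5.501 to 5.51 in ConCM. In any comparison 0 of 7 passed by limma. At an unadjusted p under 0.05 there was 1, Kit in PlGFCM against IL6_ConCM, where 2.56% of all genes were higher. Without the receptor genes these values cannot tell whether gamma-delta T cells differed between groups. B cells carry Ccr6 and Irf4, and of their 13 measured markers 1 rose and 2 fell in PlGFCM against ConCM. Jchain, of antibody-secreting cells, rose by 0.86, and the B cell genes Ms4a1 and Fcer2a fell by 0.84 and by 0.86. Of the 13, 10 had a positive log2 change in this comparison and 3 a negative one, with a median of 0.21. At an unadjusted limma p under 0.05, 4 were higher and 2 lower, where 4.19% and 4.54% of all genes were. The mean log2 level of the B cell list was 6.95 on both PlGFCM arrays, 6.92 to 6.94 in IL6_ConCM and 6.81 to 6.89 in ConCM. For myeloid and dendritic cells, which can make IL-23, it was 5.83 to 5.85 in PlGFCM, 5.72 to 5.75 in IL6_ConCM and 5.76 to 5.82 in ConCM, with 0 of 15 passing by limma in any comparison and 2 higher in PlGFCM than in ConCM at an unadjusted p under 0.05, where 4.19% of all genes were. Of 9 measured CD8 T and NK cell markers 1 rose in both PlGFCM and IL6_ConCM, Gzma, at 0.93 and 1.12. Of all genes 0.433% and 0.113% passed there. Against ConCM, 4 of the 9 had a positive and 5 a negative log2 change in PlGFCM, with a median of -0.067. In IL6_ConCM 7 were positive and 2 negative, with a median of 0.029. At an unadjusted limma p under 0.05, 3 were higher in PlGFCM and 2 in IL6_ConCM, and 0 were lower in either. The shares of all genes that were higher were 4.19% and 2.62%. In PlGFCM the calls of Jchain, Ms4a1, Fcer2a and Gzma were lost without PlGFCM replicate 1, PlGFCM replicate 2 or ConCM replicate 2. Those of Jchain and Ms4a1 were also lost without ConCM replicate 1. The Gzma call in IL6_ConCM was lost without ConCM replicate 2. The part of these cells in the values of the 10 genes was not tested.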

How the data were processed

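The 6 samples, 2 each of PlGFCM, IL6_ConCM and ConCM, were hybridised as total RNA to an Affymetrix array that covers whole transcripts, per the labels' protocols. The deposited values are a log2 level for each of 41345 probe sets. The submitters' processing notes name Transcriptome Analysis Console as the authors' tool, and its version, the normalization and the genome build are not stated there. Of 23521 probe sets with 1 symbol the brightest per gene was taken, and no low levels were filtered out, which left 22180 genes. Arrays give no read depth, and their number limits the precision. Differences were tested with limma 3.58.1 in R 4.3.3 (lmFit and eBayes with an intensity trend, 6 arrays, 3 residual degrees of freedom, 95% intervals), and a gene passed at a Benjamini-Hochberg adjusted p under 0.05 over all genes. The procedure was checked on simulated data. With 2 arrays a group an exact permutation test could reach no lower than 1 in 3, two-sided. The 10 genes, the lists and the rule for names were chosen with earlier results of these data known. The rule names all 10 genes, of each pathway list up to 4 genes that passed, and the 5 genes most like Il17a and Il17f, leaving out predicted models. Genes named without passing, and single markers of other cells, were named after their values were seen. Alternatives were the normalization, the filters, the probe sets used, the prior, the arrays in the fit, array weights, a replicate block, the call rule and each array left out, and those for pathway and marker genes were added after seeing the data.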

Additional observations from a re-analysis of the deposited data

How the results depend on the processing

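Il17f in PlGFCM against ConCM kept its direction in all 17 limma alternatives and passed in 11 of them. The count of the 10 genes that passed there, 1, was 0 with all probe sets tested singly and 0 without an intensity trend, where Il17f had adjusted p = 0.295 and 0.182, and it ran from 0 to 1 over the fits without 1 array. In these fits the log2 change of Il17f ran from 0.96 to 1.13. Testing all probe sets singly adjusts over 41345 features and also estimates the spread anew. The unadjusted limma p of Il17f was 0.000431 there, against 1.18e-05 as reported, at the same log2 change of 1.04. The cause of the losses was not tested. In IL6_ConCM against ConCM the count, 0, ran from 0 to 1 over the fits without 1 array, and it was 0 under the other alternatives and in PlGFCM against IL6_ConCM under every one. Over all genes, 96, 25 and 7 passed in the 3 comparisons by limma, against 5 to 174, 0 to 53 and 0 to 10 over the alternatives. Of 498 values of single genes among the 10 under an alternative, 472 kept direction and side of the threshold and 19 changed sign, all in genes that did not pass. With array medians subtracted Nfkbiz in IL6_ConCM minus ConCM was at -0.000175. The other sign changes came with 1 array left out. In PlGFCM minus ConCM these fits gave -0.60 to 0.21 for Il22, -0.69 to 0.11 for Il23r, -0.060 to 0.042 for Il17re and -0.010 to 0.14 for Nfkbiz. In IL6_ConCM minus ConCM they gave -0.067 to 0.082 for Il17re, -0.060 to 0.13 for Rora and -0.027 to 0.039 for Nfkbiz. In PlGFCM minus IL6_ConCM they gave -0.45 to 0.36 for Il22, -0.58 to 0.22 for Il23r, -0.14 to 0.048 for Ccl20, -0.073 to 0.47 for Ccr6, -0.092 to 0.058 for Il17re, -0.010 to 0.18 for Rora and -0.016 to 0.13 for Nfkbiz. The filters on low levels left 7 and 9 of the 10 genes, so no median over the 10 was formed there. Whether replicate numbers shared by the groups pair the samples was not settled. Replicate differences correlated at 0.033, -0.039 and 0.11 between groups over all genes. With dim genes included, such low values cannot exclude a pairing. With a replicate block 1 of the 10 passed in PlGFCM against ConCM, Il17f at adjusted p = 0.0330, and 62 of all genes in place of 96, and in IL6_ConCM against ConCM 16 in place of 25. A group with 1 array left is assumed to vary like the others. Brightness limits Il22, which lay below the 25th percentile of all probe sets. Il23r and Il17re also had means below the median of all probe sets, which was 5.48. Il17a, at a mean of 5.78, Ccr6 and Ccl20 lay little above that median. For Il17a 52.7% of all genes had a lower mean, for Ccr6 49.6% and for Ccl20 47.6%. Whether the levels of these 6 genes stand above the background of the arrays was not tested.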
